A study of Schizosaccharomyces pombe with 6 samples.

Results

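*aal1* is a long non-coding RNA (lncRNA) of the fission yeast *Schizosaccharomyces pombe*, and the data described here compare pull-downs of *aal1* from wild-type cells with mock pull-downs from *aal1∆* cells, which lack it. All counted RNAs outside the *aal1* locus are covered, which is 6999 of 7001 RNAs. The 2 left out are *aal1* itself (SPNCRNA.1530) and SPNCRNA.401, a lncRNA on the opposite strand that overlaps it by 745 nt. Of these 6999 RNAs, 4910 had at least 1 count in the 4 libraries, and 1327 had enough counts to be tested.

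The wild-type cells were of the haploid h- laboratory strain, and the *aal1∆* cells carried a CRISPR-Cas9 deletion of *aal1* in that same background, so that *aal1* was at its native level or absent and no plasmid was present in either strain. The deletion removes most of SPNCRNA.401 as well. Both strains were grown to Day 6 of stationary phase, fixed with formaldehyde, and RNA bound to streptavidin beads through biotinylated probes antisense to *aal1* was eluted and sequenced, with 2 biological replicates per strain. A pair of independent deletion strains was made in the study, and the sources used here do not say which of them was pulled down. Another strain of the series, *aal1-pOE*, which carries *aal1* on a plasmid, entered the fit to estimate the spread between replicates and is not described.

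In a pull-down of this kind, probes capture the target RNA together with whatever was crosslinked to it, directly or through shared proteins. RNA that sticks to beads or to probes is captured too, and the deletion strain shows that part, because it holds no target. An RNA that associates with *aal1* is thus looked for as one with more counts in wild type than in *aal1∆*. RNA of the cells before pull-down was not analysed here. More of an RNA per cell, more cells that hold it and better recovery of it cannot be told apart in these counts.

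The libraries were shallow, with 86614 to 89491 wild-type counts and 40653 to 175263 *aal1∆* counts, and 2520 to 4411 RNAs had at least 1 count. *aal1* had 28 and 147 wild-type counts and none in the *aal1∆* libraries (0 and 0; edgeR's quasi-likelihood test, adjusted p = 5.22e-05). With 3 counts per *aal1∆* library set in place of 0, it was 27.6-fold higher in wild type. Markers of stationary phase and, at lower summed counts, some markers of dividing cells were present in all libraries. The heat-shock protein *hsp9* had 151, 119, 202 and 67 counts (wild-type replicates 1 and 2, then *aal1∆* replicates 1 and 2, an order kept below). The 6 stationary-phase and stress markers summed to 500, 422, 915 and 243 counts and the 7 markers of dividing cells to 114, 70, 179 and 44. Of the latter, *cdc18* had no count and *cig2* had 0, 0, 1 and 0, whereas the histone mRNA *htb1* had 58, 34, 116 and 25. Sampling noise did not cover the difference between replicates, with a chi-square over its degrees of freedom of 13.4 for the wild-type pair and 11.3 for the other. Over the 1327 tested RNAs, log2 ratios between the wild-type replicates had an SD of 1.3 and those between the *aal1∆* replicates an SD of 1.5. The difference between strain means had an SD of 0.943. Each mean averages 2 libraries, which narrows its spread, so this value is not on a par with those of single libraries. The best correlated pair of libraries was wild-type replicate 1 and *aal1∆* replicate 1 (Pearson's r = 0.796 across genes, which are not independent replicates), and the replicates of a strain had 0.698 and 0.655.

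Nuclear mRNA and rRNA made up most of the counts in both strains, in shares that overlapped. Shares of counts do not give the amount of RNA on the beads, which was not analysed here. Nuclear mRNA made up 65.6% and 42.4% of the wild-type counts and 53.6% and 55.9% of the *aal1∆* counts, or 54.0% ± 16.4 (SD, n = 2) against 54.8% ± 1.64 (SD, n = 2). rRNA took 30.8% and 54.4% of the wild-type counts, against 44.4% and 41.2%. For both classes, the wild-type libraries lay on either side of the *aal1∆* libraries (p = 1.0 by exact permutation, two-sided; with 2 libraries against 2, no p under 0.33 is possible). Mitochondrially encoded RNA followed with 2.17%, 1.54%, 1.01% and 1.61%, and lncRNA outside the locus with 1.07%, 0.695%, 0.769% and 0.927%. The small nucleolar RNAs (snoRNAs), which guide rRNA modification and processing, were low, but did not overlap between strains, with 0.0771% and 0.0658% against 0.0417% and 0.0418%. Of their 69, 57, 73 and 17 counts, 47, 28, 32 and 6 came from a single RNA, *snR30*. The class and *snR30*, described below, are therefore not separate results. The small nuclear RNAs (snRNAs) of the spliceosome lay the other way round, with 0.057% and 0.0312% against 0.0759% and 0.0886% (exact permutation p = 0.33 for each of these 2 classes, the smallest possible). None of the 171 nuclear tRNA genes had a count, which by counting error alone allows a share of up to 0.00171% (*aal1∆* replicate 1) to 0.00738% (*aal1∆* replicate 2).

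**Figure D1:**
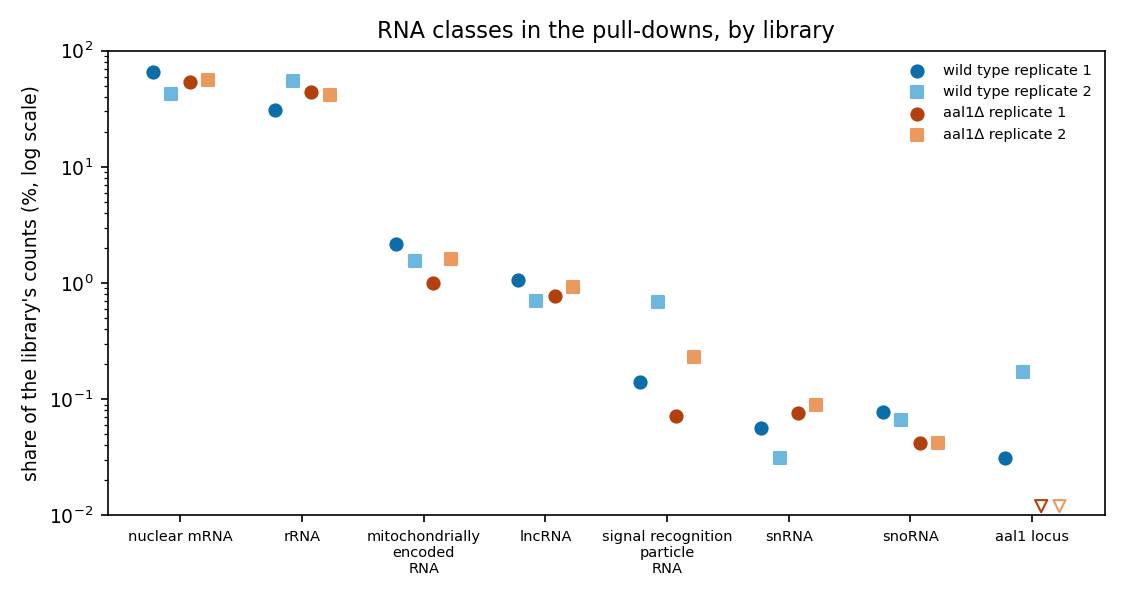
Share of each library's counts (%, log scale) taken by RNA classes in the 4 libraries. Blue points are wild-type and orange points *aal1∆* libraries, circles are replicate 1 and squares replicate 2, and open triangles mark shares of 0. Wild type and *aal1∆* overlap for mRNA and rRNA, and the *aal1* locus is empty in both *aal1∆* libraries.

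Outside the locus, 1 of the 1327 tested RNAs was called higher in wild type (0.0754%) and 0 lower (0.0%), at an adjusted p under 0.05 in edgeR's quasi-likelihood test. At an unadjusted p under 0.05 there were 14 higher (1.06%) and 18 lower (1.36%), and DESeq2 also called 1 higher and 0 lower. Log2 fold changes, wild type over *aal1∆*, had a median of 0.00 and an interquartile range of -0.47 to 0.46, and 1053 RNAs (79.4%) were within 2-fold. The scaling of the libraries takes most RNAs as unchanged and sets this median near 0, so a shift of all RNAs could not be seen. Without any library in turn, 0 to 3 RNAs were called higher and 0 to 2 lower, with 0 calls in either direction without wild-type replicate 2 or without *aal1∆* replicate 1, and 3 higher and 2 lower without *aal1∆* replicate 2. In terms of order alone, the wild-type values both exceeded both *aal1∆* values for 189 RNAs (14.2%) and both fell short of them for 212 (16.0%). These shares are the background for the counts below.

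**Figure D2:**
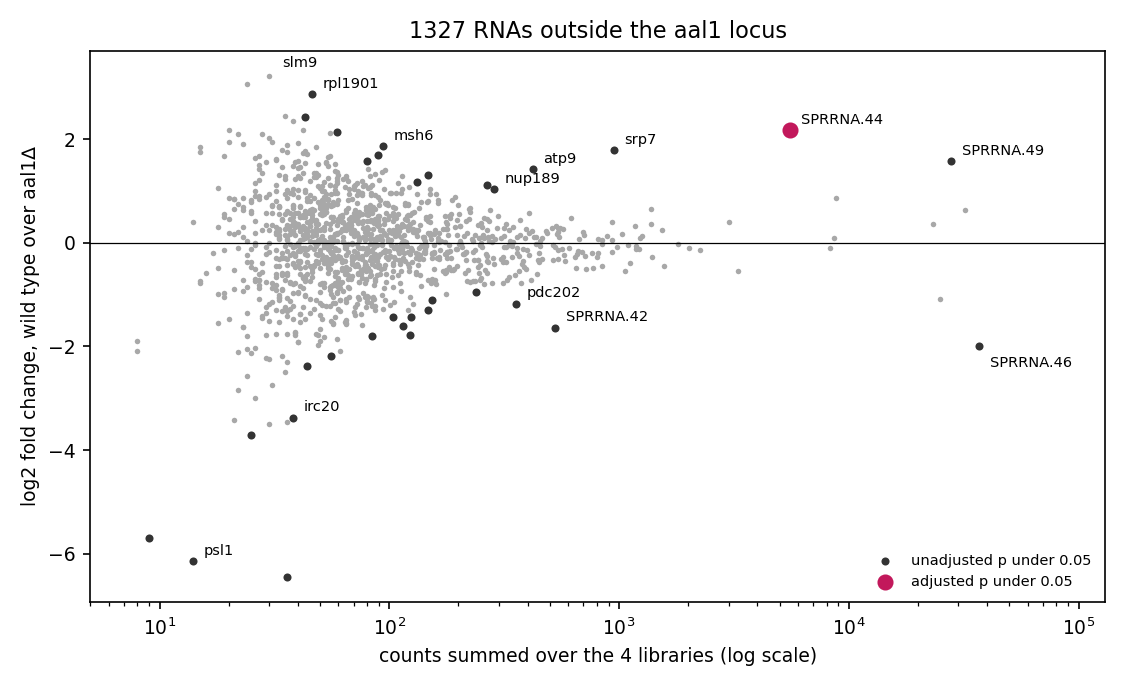
Log2 fold change of wild type over *aal1∆* (vertical axis) against the counts summed over the 4 libraries (horizontal axis, log scale) for the 1327 tested RNAs. Black points have an unadjusted p under 0.05, and the red point, SPRRNA.44, is the only RNA with an adjusted p under 0.05. The scatter narrows from left to right, and the fitted fold changes at the far lower left belong to RNAs with 0 counts in wild type.

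The called RNA was SPRRNA.44, an annotated copy of the 18S rRNA gene, the RNA of the small ribosomal subunit (chromosome III, 21289 to 23130, minus strand, in the assembly ASM294v3). Its counts were 2307 and 2122 with *aal1* present, and 847 and 278 without. Wild type was thus higher in either replicate, by 4.5-fold in the fit (log2 fold change 2.17, SE 0.516, adjusted p = 0.0477). In ASM294v3, however, its 1842 nt are identical to those of SPRRNA.43 and SPRRNA.46, and none of its 1776 windows of 67 nt (a trimmed read) is unique. A read that lies within these copies cannot be assigned to 1 of them by its own sequence. Whether mates in flanking sequence placed some read pairs was not tested. SPRRNA.46 went the other way, with 1973 and 2382 counts against 31843 and 771, and SPRRNA.43 had 976 and 2687 against 4060 and 909. Without *aal1∆* replicate 1, the log2 fold change of SPRRNA.46 turned from -1.99 to 0.67. With all 5 18S copies summed, 18S rRNA took 6.02% and 8.42% of the wild-type counts and 21.3% and 4.95% of the others, which overlap, and the log2 fold change of the sum was -0.81 (SE 0.591, adjusted p = 1.0 in the fit on summed copies). The call on SPRRNA.44 was lost with scaling to library size only (adjusted p = 0.217), with a filter of at least 20 counts in 2 libraries (0.0949), in a fit of the wild-type and *aal1∆* libraries alone (0.108), and without wild-type replicate 2 (0.996), *aal1∆* replicate 1 (0.388), *aal1∆* replicate 2 (0.218) or *aal1-pOE* replicate 2 (0.0636), although its log2 fold change stayed between 1.84 and 2.52.

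The copies of 28S rRNA, the RNA of the large subunit, varied in the same manner between libraries of a strain. SPRRNA.49 had 4635 and 15376 wild-type counts against 5544 and 2421 (log2 fold change 1.58, SE 0.732, adjusted p = 0.999), and SPRRNA.48, which is identical to it, had 2292 and 5498 against 10704 and 6477 (log2 fold change -1.08, SE 0.696, adjusted p = 0.999). SPRRNA.47 had 5007 and 10582 against 14623 and 1768. None of these copies separated the strains. Summed, 28S rRNA made up 13.3% and 36.3% of the wild-type counts and 17.6% and 26.2% of the *aal1∆* counts. A partial 18S copy at the start of chromosome III, SPRRNA.42, had 53 and 35 counts against 420 and 19, so that the largest value and the smallest were both in *aal1∆* (log2 fold change -1.64, SE 0.601, adjusted p = 0.999). SPRRNA.01 and SPRRNA.02, which were not matched to the annotation, had 7521 and 5352 against 7447 and 2960, and 2698 and 2983 against 2052 and 1088.

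**Figure D3:**
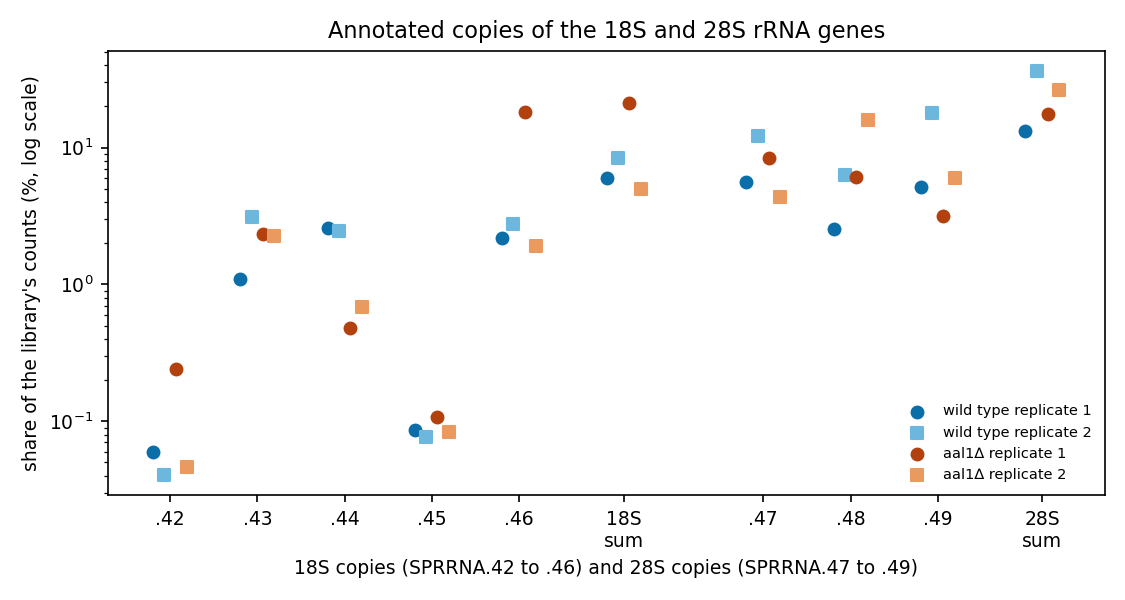
Share of each library's counts (%, log scale) for annotated copies of 18S rRNA (SPRRNA.42 to SPRRNA.46) and 28S rRNA (SPRRNA.47 to SPRRNA.49) and for the sums of all copies of each. The wild-type points (blue) of SPRRNA.44 lie above its *aal1∆* points (orange), whereas for the 18S sum the *aal1∆* points lie at 21.3% and 4.95%, on either side of wild type.

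Among other non-coding RNAs, the smallest p belonged to *srp7*, the 7SL RNA of the signal recognition particle, which targets nascent secretory proteins to the endoplasmic reticulum. *srp7* had 127 and 599 wild-type counts against 126 and 94, that is 1200 and 9300 against 802 and 2300 CPM (library-size-scaled counts with TMM factors, which correct for composition). The value of wild-type replicate 2 was by far the highest, and wild-type replicate 1 lay between the *aal1∆* libraries. The log2 fold change was 1.79 (SE 0.493, adjusted p = 0.224). *srp7* was called higher with other size factors (adjusted p = 0.0193), with the rRNA copies summed by product (adjusted p = 0.0123), and without wild-type replicate 1, *aal1∆* replicate 2 or either *aal1-pOE* library (adjusted p from 0.000139 to 0.0162), but its log2 fold change was -0.31 without wild-type replicate 2. In both of the small RNAs of RNA-processing enzymes, wild-type replicate 2 was highest as well. *mrp1*, the RNA of RNase MRP, which cleaves precursor rRNA, had 22 and 65 counts against 30 and 15 (log2 fold change 1.17, SE 0.582, adjusted p = 0.999), and *rrk1*, the RNA of RNase P, which matures tRNA, had 20 and 73 against 52 and 18. In none of these 3 RNAs did wild-type replicate 1 exceed both *aal1∆* libraries on the CPM scale, and the log2 fold changes of *mrp1* and *rrk1* were -0.35 and -1.0 without wild-type replicate 2.

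*snR30*, the U17 snoRNA needed for 18S rRNA processing, had 47 and 28 counts against 32 and 6. Scaled, these are 445 and 435 CPM against 204 and 147, so that the strains did not overlap (log2 fold change 1.28, SE 0.682, adjusted p = 0.999). Its log2 fold change lay between 1.06 and 1.67 without each library in turn, with an adjusted p of 0.711 or more. *snu2*, the U2 snRNA of the spliceosome, had 34 and 18 counts against 88 and 20, or 322 and 280 CPM against 560 and 489, and lay lower in wild type (log2 fold change -0.80, SE 0.53, adjusted p = 0.999). The snRNA class had 51 and 27 counts against 133 and 36, most of them from *snu2*, so the class and *snu2* are not separate results. Of the 12 lncRNAs tested, a class that includes *mrp1* and *rrk1* in the annotation, 1 lay above, 1 below, and 10 overlapped between strains, with a median log2 fold change of 0.29.

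Of the mitochondrially encoded RNAs, most lay higher in wild type, although none was called. Of 6 tested, 4 lay above both *aal1∆* libraries (66.7%, against 14.2% of all RNAs) and 1 below, and their median log2 fold change was 0.42. With scaling to library size only, 1 lay above and 1 below. *atp9* (SPMIT.10), which encodes the membrane ring subunit of the mitochondrial ATP synthase, had 142 and 167 wild-type counts against 68 and 45, or 1340 and 2590 CPM against 433 and 1100. The gap between the lower wild-type library and the higher *aal1∆* library was small next to that between replicates. Its log2 fold change was 1.42 (SE 0.427, 95% interval 0.57 to 2.27, adjusted p = 0.449), and it was called only without *aal1∆* replicate 2 (adjusted p = 0.0391). SPMIT.11, which was given no name here, had 477 and 363 counts against 375 and 167 (log2 fold change 0.66, SE 0.421, adjusted p = 0.999), and SPMIT.05 had 102 and 49 against 90 and 30 (log2 fold change 0.43, SE 0.441, adjusted p = 0.999). In contrast, the 18 tested nuclear genes of the respiratory chain and ATP synthase had a median of -0.18, with 1 above and 1 below.

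Ribosomal protein mRNAs were of interest to the study as possible partners of *aal1*, and were examined as a group. Of 141 ribosomal protein genes, 89 were tested, 50 of the large and 39 of the small subunit, and 0 were called in edgeR or in DESeq2 (2 higher and 0 lower at an unadjusted p under 0.05 in edgeR). 25 lay above both *aal1∆* libraries (28.1%, against 14.2% of all RNAs) and 6 below (6.74%, against 16.0%). Their median log2 fold change was 0.24, and 57 of 89 were above 0. As a share of each library, their summed counts overlapped between strains, with 1.43% and 1.19% of counts against 1.01% and 1.58% for the large subunit, and 0.962% and 0.85% against 0.699% and 0.871% for the small subunit. The median difference between replicates was larger than that between strains, at 0.46 (log2, wild-type replicate 2 over 1) and 0.41 (*aal1∆* replicate 2 over 1). Without wild-type replicate 2 the median over 101 tested genes was 0.003. With a filter of at least 20 counts in 2 libraries it was 0.035, with 9 of 48 above and 2 below. Among all RNAs that passed this stricter filter, 101 lay above and 125 below. Their shares are not given here, so no excess is read from these counts. Without *aal1∆* replicate 1 it was 0.28 over 104 tested genes, close to the median of all RNAs without that library, which is given below. Ribosomal protein mRNAs are short, and all 89 were among the 323 shortest of the 1292 tested nuclear mRNAs (361 to 1641 nt). The other 234 of these short mRNAs had a median of -0.04, with 31 above and 31 below (13.2% each).

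*rpl1901*, which encodes the protein L19 of the large subunit (chromosome II, 4123056 to 4123747, minus strand), had the smallest p among the nuclear mRNAs. Its 14 and 25 wild-type counts faced 6 and 1, or 133 and 388 CPM against 38.2 and 24.4. The strains did not overlap, and the difference was 7.29-fold in the fit (log2 fold change 2.87, SE 1.02, 95% interval 0.83 to 4.90). Its p was 0.00635 before and 0.999 after adjustment over all RNAs. Its log2 fold change stayed between 1.90 and 3.51 when each library was left out in turn. *rpl1902*, chosen after its values were seen because it encodes the same protein, had 12 and 8 counts against 31 and 10 and lay the other way round (log2 fold change -0.87, SE 0.978, adjusted p = 0.999). *rps502*, which encodes a protein of the small subunit, had 32 and 23 counts against 23 and 2 (log2 fold change 1.58, SE 0.75, adjusted p = 0.999), and *rps1202* had 12 and 20 against 9 and 1 (log2 fold change 2.18, SE 1.25, adjusted p = 0.999). *rpl301* had 20 and 38 counts against 74 and 45, with the highest value in *aal1∆* replicate 2 on the CPM scale (log2 fold change -1.0, SE 0.524, adjusted p = 0.999).

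In the 1318 tested RNAs with a sequence, no run of more than 18 nt was complementary to *aal1*. *atp9*, SPMIT.11, SPMIT.05, SPRRNA.01 and SPRRNA.02 were among the RNAs without a sequence and were not searched. To compare RNAs that were higher in wild type with those that share most sequence, the longest run complementary to *aal1* is given in capitals for 3 RNAs with an unadjusted p under 0.05 and for 3 of those with the longest runs, with up to 6 nt on either side (RefSeq, ASM294v3, 5′ to 3′, transcript strand).
rpl1901: taaatgAATATATTTTCcccttt
msh6: ttaaagAAAGTCTTCAATctgaca
SPRRNA.44: ctaagtATAAGCAATTTTGtactgt
stt4: tttggtAGCAATTTTGAGAGCAAtttgga
rng2: ttctttTCAAAAATCGCACCTATctgtca
atd1: atttttTGTAAAAAAAATAAAAAAatatgc
The runs in *rpl1901*, *msh6* and SPRRNA.44 were 11, 12 and 13 nt long, *msh6* holding 2 of that length, and SPRRNA.46, which lay the other way, has the sequence of SPRRNA.44. The run of *rpl1901* is complementary to nt 481 to 491 of the 783 nt of *aal1*, and pairing itself was not tested. A 10 nt run of the mRNA *irc20*, which lay lower in wild type (log2 fold change -3.38), is complementary to nt 481 to 490. A longest run of 11 nt was found in 439 of the 1318 RNAs, with a median log2 fold change of -0.03, 70 above and 79 below. Those of the mRNAs *stt4*, *rng2* and *atd1*, which were chosen for their length, were 17, 17 and 18 nt long, the last of them made of A and T but for a single G, and the log2 fold changes of these 3 mRNAs were 0.26, -0.45 and -0.04. Of all 3 RNAs with a run of 17 nt, 1 lay above, 1 below and 1 overlapped, with a median log2 fold change of 0.26. The 1 above was *atg43* (log2 fold change 1.16, SE 0.921), whose run is not printed here. Of the 1318 tested RNAs with a sequence, 357 held a complementary run of 12 nt or more. Their median log2 fold change was 0.03 against -0.02 for the other 961, and 46 lay above (12.9%) and 56 below (15.7%), against 139 (14.5%) and 155 (16.1%). Runs of 12 nt or more identical to *aal1* on the same strand were found in 476 RNAs. *srp7* is short, and its longest complementary run, in capitals within the whole 255 nt of the RNA (chromosome I, 4268662 to 4268916, plus strand), was 10 nt.
srp7: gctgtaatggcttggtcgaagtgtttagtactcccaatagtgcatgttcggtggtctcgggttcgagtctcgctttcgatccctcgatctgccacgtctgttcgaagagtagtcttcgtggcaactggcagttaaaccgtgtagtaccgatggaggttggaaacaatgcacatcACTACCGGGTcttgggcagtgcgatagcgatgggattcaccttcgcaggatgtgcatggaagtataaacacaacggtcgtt

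Several other mRNAs did not overlap between strains and were higher in wild type with an unadjusted p under 0.05, although none passed adjustment (adjusted p = 0.999 for each). *msh6*, which encodes a DNA mismatch repair protein, had 18 and 48 wild-type counts against 26 and 2 (170 and 745 CPM against 166 and 48.9, log2 fold change 1.86, SE 0.687). Its lower wild-type value and its higher *aal1∆* value were close to equal. *sua7*, which encodes the transcription factor TFIIB, had 30 and 15 counts against 14 and 0 (log2 fold change 2.15, SE 0.941), and *pdi1*, which encodes protein disulfide isomerase, had 46 and 17 against 25 and 1 (log2 fold change 1.70, SE 0.764). The nucleoporin mRNA *nup189* was better covered, with 129 and 44 counts against 103 and 9 (1220 and 683 CPM against 656 and 220, log2 fold change 1.04, SE 0.477). *dak2*, for dihydroxyacetone kinase, had 50 and 54 counts against 27 and 16 (log2 fold change 1.30, SE 0.604), and *ada1*, for adenosine deaminase, had 21 and 14 against 7 and 1 (log2 fold change 2.42, SE 1.13). In *sua7*, *pdi1* and *ada1*, *aal1∆* replicate 2 gave 0 or 1 count. Further down the same order were *spt5* (transcription elongation, 58 and 42 against 34 and 16), *tif512* (translation factor eIF5A, 56 and 16 against 31 and 6), *slm9* (histone chaperone, 14 and 13 against 2 and 1) and the uncharacterised SPCC622.15c (37 and 31 against 20 and 8), with log2 fold changes between 1.04 and 3.22. *mug33*, named after its values were seen because its unadjusted p was also under 0.05, overlapped between strains on the CPM scale, with 103 and 91 counts against 32 and 41 (log2 fold change 1.11), and was called without *aal1∆* replicate 2 (log2 fold change 2.5).

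**Figure D4:**
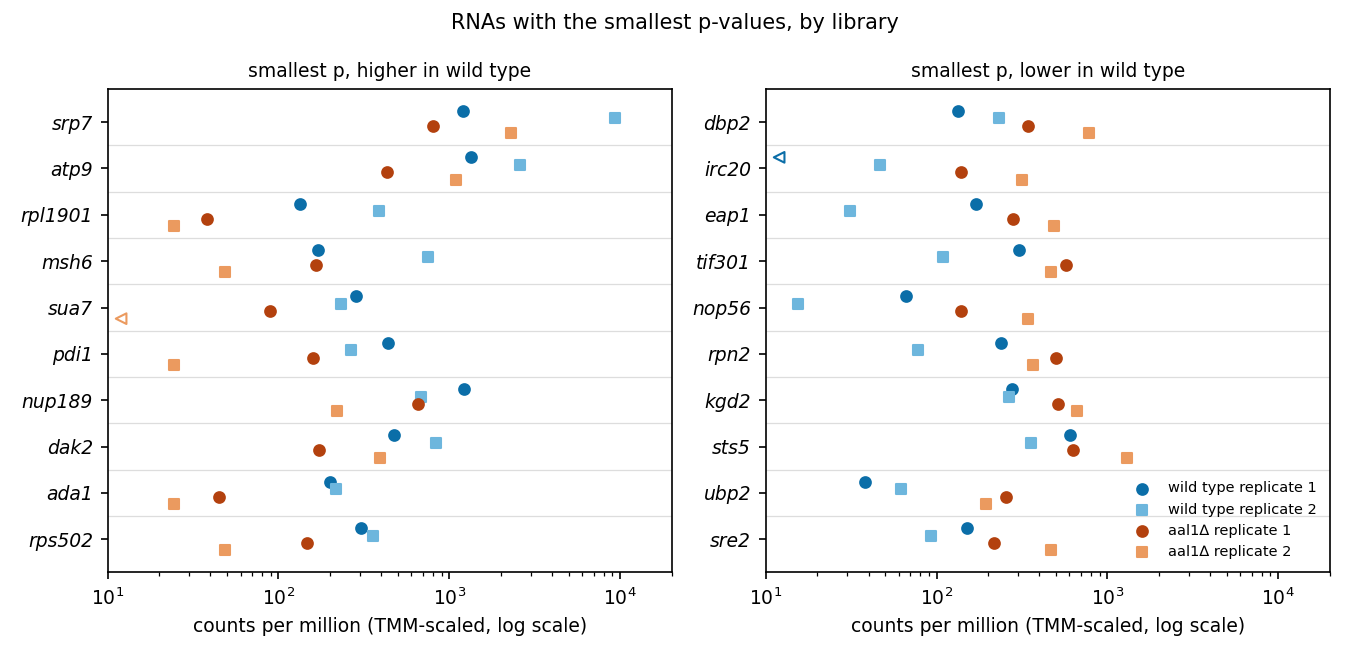
CPM (TMM-scaled, log scale) in the 4 libraries for 10 RNAs with small p-values that were higher in wild type (left) and 10 that were lower (right). SPRRNA.44 is left out on the left. On the right, *psl1*, *lac1* and *spo2*, which had 0 or 1 count in wild type, and SPAC5D6.04 are left out. Circles are replicate 1, squares replicate 2, blue is wild type and orange *aal1∆*, and open triangles stand for 0 counts. Apart from *srp7*, the RNAs shown were chosen among those that did not overlap between strains, so their lack of overlap is not a result. RNAs that overlapped with small p-values, such as SPRRNA.46 and *pdc202*, are not shown. The distance between replicates is often as wide as that between strains.

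A similar number of RNAs lay lower in wild type. *dbp2*, which encodes an RNA helicase, had 14 and 15 wild-type counts against 54 and 32, or 133 and 233 CPM against 344 and 782 (log2 fold change -1.60, SE 0.672, adjusted p = 0.999). Among the other mRNAs, *eap1*, for a protein that binds the cap-binding factor eIF4E, had 18 and 2 counts against 44 and 20 (log2 fold change -1.80, SE 0.815), *tif301*, for a subunit of the initiation factor eIF3, had 32 and 7 against 90 and 19 (log2 fold change -1.30, SE 0.59), *nop56*, for a snoRNP protein, had 7 and 1 against 22 and 14 (log2 fold change -2.37, 95% interval -4.63 to -0.11), and *sts5*, for a relative of the exoribonuclease Dis3L2, had 64 and 23 against 99 and 53 (log2 fold change -0.94, SE 0.463). The adjusted p was 0.999 for each of them. The DNA helicase mRNA *irc20* had 0 and 3 counts against 22 and 13 (log2 fold change -3.38, SE 1.44). *rpn2*, for a proteasome subunit, had 25 and 5 against 79 and 15, and *kgd2*, for an enzyme of the citric acid cycle, had 29 and 17 against 81 and 27 (log2 fold changes -1.43 and -1.10). *ubp2* (ubiquitin hydrolase, 4 and 4 against 40 and 8), SPAC5D6.04 (a membrane transporter, 25 and 3 against 58 and 18), *sre2* (a membrane-tethered transcription factor, 16 and 6 against 34 and 19), SPBC887.12 (a P-type ATPase, 3 and 3 against 18 and 10) and *spo2* (0 and 1 against 22 and 2) completed the order. *psl1*, which encodes a cyclin, and *lac1*, a ceramide synthase, had 0 counts in both wild-type libraries and 7 and 7, or 3 and 6, in *aal1∆*. With 3 counts per wild-type library set in place of 0, these were 2.88-fold and 2.21-fold lower in wild type. These values leave out the spread between replicates, and the fitted 95% intervals reached up to log2 fold changes of -0.22 and -0.10. SPAC24H6.13 had 36 counts in *aal1∆* replicate 1 and 0 in the other 3 libraries. No adjusted p of these RNAs was under 0.999. With 19 and 2 counts against 98 and 4, *pil2* overlapped (log2 fold change -1.77), and it too was named with its values known.

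Across gene lists of known function, no list had a call apart from that of the rRNA genes. The median log2 fold changes lay close to the 0.00 of all RNAs for glycolysis (0.07, 13 tested, 2 above and 2 below), the citric acid cycle (-0.12, 13 tested, 1 above and 2 below), translation elongation factors (0.01, 12 tested, 1 above and 3 below), cell-wall glucan synthesis (-0.09, 17 tested, 0 above and 3 below) and membrane transporters (0.10, 26 tested, 5 above and 6 below). Heat-shock proteins and chaperones, which fold other proteins and are abundant in stationary phase, were lower in order, with 7 of 18 below both *aal1∆* libraries (38.9%, against 16.0% of all RNAs) and 0 above, and a median of -0.35. With scaling to library size only, 4 lay below and 1 above. *ssa2*, a cytosolic Hsp70, had 208 and 172 counts against 547 and 133 (1970 and 2670 CPM against 3480 and 3250, log2 fold change -0.54, SE 0.385, adjusted p = 0.999), and *bip1*, the Hsp70 of the endoplasmic reticulum, had 59 and 39 against 104 and 40 (log2 fold change -0.47, SE 0.456, adjusted p = 0.999). The small heat-shock protein *hsp16* overlapped, with 133 and 128 counts against 238 and 45. Translation initiation factors had 4 of 16 below and 0 above and a median of -0.38. Without *aal1∆* replicate 1 it was 0.08, when the median of all RNAs was 0.27. For aminoacyl-tRNA synthetases, which charge tRNAs, the median was 0.28, with 2 of 13 above and 0 below.

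**Figure D5:**
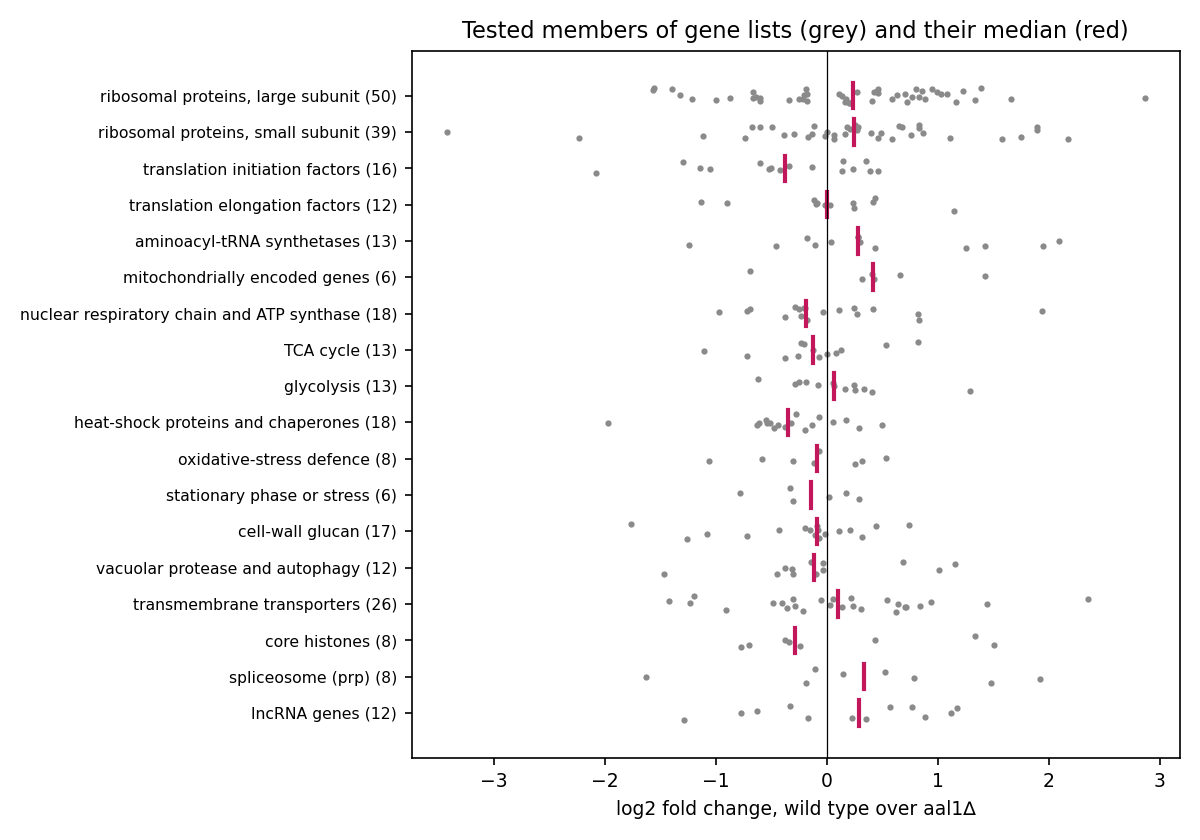
Log2 fold change of wild type over *aal1∆* for the tested members (grey points) of 18 gene lists, with the number tested in brackets and the median as a red bar. The medians lie between -0.38 (translation initiation factors) and 0.42 (mitochondrially encoded genes), and the members of most lists spread over both sides of 0.

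Among the markers of cell state none was called in either direction, with no unadjusted p under 0.05. Of the 6 stationary-phase and stress markers, 0 lay above and 2 below (33.3%, against 16.0% of all RNAs), and their median log2 fold change was -0.14. The glycerol-3-phosphate dehydrogenase mRNA *gpd1* had 46 and 47 counts against 144 and 44 (log2 fold change -0.78, SE 0.449, adjusted p = 0.999), and the catalase mRNA *ctt1* had 52 and 73 against 135 and 47 (log2 fold change -0.31, SE 0.444, adjusted p = 0.999). Of the 7 markers of dividing cells, 5 were tested, with 1 above, 1 below and a median of 0.44. The histone H2B mRNA *htb1* had 58 and 34 counts against 116 and 25 (log2 fold change -0.34, SE 0.468, adjusted p = 0.999). The meiotic regulators *ste11*, with 87 and 34 counts against 176 and 24, and *mei2*, with 31 and 37 against 99 and 12, overlapped between strains. Actin (*act1*), a common reference, had 49 and 48 counts against 94 and 13 (log2 fold change 0.33, SE 0.471, adjusted p = 0.999). The genes on either side of *aal1* were too low to be tested, with 0 and 4 counts against 2 and 0 for *ckb2*, a subunit of casein kinase 2, and 0 and 1 against 3 and 4 for *ctu1*, a subunit of a tRNA thiolase.

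The most abundant mRNA in all 4 libraries was *pdc201*, which encodes pyruvate decarboxylase, the enzyme that leads from pyruvate to ethanol. It had 2191 and 1317 wild-type counts against 3958 and 787, or 20700 and 20500 CPM against 25200 and 19200 (log2 fold change -0.11, SE 0.524, adjusted p = 0.999). The wild-type values lay between those of *aal1∆*. *pdc202*, a second pyruvate decarboxylase gene, had 48 and 33 counts against 255 and 20, with *aal1∆* replicate 1 alone being high (log2 fold change -1.18, SE 0.509, adjusted p = 0.999, and a log2 fold change of 0.079 without that library). *lsd90* had 715 and 447 counts against 1775 and 359, or 6770 and 6940 CPM against 11300 and 8780 (log2 fold change -0.55, SE 0.444, adjusted p = 0.999). *nmt1*, a thiamine-repressed gene that is abundant in medium without thiamine, had 370 and 402 counts against 846 and 184 and overlapped between strains (log2 fold change -0.03, SE 0.405, adjusted p = 0.999).

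Some RNAs, most of them below the filter, were seen in only 1 strain. 54 RNAs had counts in both wild-type libraries and 0 in both *aal1∆* libraries, with at most 14 counts in all and 0 of them tested, and 131 had counts in both *aal1∆* libraries and 0 in wild type, with at most 32 and 2 of them tested (*psl1* and *lac1*). The *aal1∆* libraries together were deeper. Examples of the former are the ribosomal protein mRNA *rpl3002*, with 13 and 1 counts, and *uvi15*, with 7 and 7, and of the latter the hexose transporter mRNA *ght7*, with 31 and 1, and *tim11*, a subunit of ATP synthase, with 8 and 8. These 4 were chosen after their values were seen. With 3 counts per library set in place of 0, the fold differences were 1.5, 1.89, 2.96 and 3.29, which leave out the spread between replicates. By this measure only 14 of the 54 and 66 of the 131 RNAs had a fold difference over 1, and the 4 examples are among them.

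What the depth allowed to be seen depended on the level of an RNA. The median SE of a log2 fold change was 1.37 for the 420 RNAs with under 50 counts over the 4 libraries, 0.787 for the 701 with 50 to 199, 0.432 for the 177 with 200 to 999 and 0.396 for the 29 with 1000 or more. For 65 of the 1327 RNAs, the whole 95% interval lay within 2-fold, among them 53 with 200 to 999 counts and 10 with 1000 or more. The upper end of the interval was under 4-fold higher in wild type for 806 RNAs (60.7%). For the others the interval reached 4-fold or more. In order, 56 of the 323 shortest tested mRNAs lay above and 37 below, against 38 and 63 of the 323 longest. Spearman's rho of the log2 fold change across 1292 mRNAs, which are not independent replicates, was -0.03 for length and 0.04 for GC content, and -0.11 and 0.08 for the difference between the wild-type replicates.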

How the data were processed

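RNA pulled down with *aal1* probes from 2 wild-type and 2 *aal1∆* cultures at Day 6 was analysed from 1 table of 7001 RNAs. The authors sequenced directional libraries on a MiSeq (75 bp, paired-end), removed 8 bases from each read's start, aligned reads with HISAT2 (2.2.1) and deposited raw read counts per gene from HTSeq (0.12.3). The strand settings named for these steps are opposite to each other, so sense and antisense partners are uncertain from the settings alone. In wild type, 28 and 147 counts fell on *aal1* and 0 and 0 on SPNCRNA.401, and the strand of the reads was not tested. The sources used here name neither the genome build nor a step that collapses duplicate reads. Names and sequences were taken from RefSeq (ASM294v3), which held 6852 of the IDs, and 149 were not matched. Members and gene lists were chosen with earlier results of these data known.

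Counts of all 6 libraries of the 3 strains were filtered (filterByExpr), scaled by TMM and fitted with edgeR (4.0.16, quasi-likelihood), and the contrast of wild type with *aal1∆* was adjusted by Benjamini-Hochberg over 1329 RNAs (threshold 0.05). The common dispersion was 0.243. Fold changes of RNAs with 0 counts in a strain are fitted values. Where 3 counts per library were set in place of 0, the spread between replicates was not included. Shares were compared with exact permutation tests. DESeq2 (1.42.0), other scalings, filters, the replicate block and the loss of each library were alternatives. On simulated counts with 200 changed RNAs, the fit was tested before use. The RNAs named are every call, the 15 smallest p-values in each direction among RNAs that did not overlap between strains, the 10 RNAs with most counts, and up to 3 of each list, with *aal1*, its neighbours and *act1*. Complementary runs were searched by exact matching over the whole transcript. The sequence of 1 of them is not reported here. Replicates are labelled biological. The fit had 70.4 prior and 3 residual degrees of freedom, so its p-values and intervals rest mostly on a spread pooled over RNAs and all 6 libraries. They rest little on the spread of each RNA alone. Total counts, 40653 to 175263, set the precision.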

Additional observations from a re-analysis of the deposited data

How the results depend on the processing

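The count of RNAs called higher in wild type, 1 in the fit reported, was 2 with RLE size factors and 0 with scaling to library size only, with a filter of at least 20 counts in 2 libraries, and with the 4 libraries of these strains alone, and the count of RNAs called lower, 0 in the fit reported, was 1 without a filter on low counts, namely SPRRNA.46. With the rRNA copies summed by product, or with rRNA, mitochondrial and *aal1* locus genes left out, the 1 RNA called higher was *srp7*. Leaving out each library in turn gave 0 to 3 called higher and 0 to 2 called lower. With the stricter filter, 101 RNAs lay above in both wild-type libraries and 125 below. The difference in rRNA share, -0.19 percentage points, ranged from -11.99 to 11.61 when each library was left out, and that in mRNA share, -0.77, from -12.4 to 10.86. Replicate numbers did not pair the libraries (correlation of the deviations of wild type and *aal1∆* 0.05), and a fit with the replicate number as a block called 1 higher and 0 lower (SPRRNA.44, log2 fold change 2.16, adjusted p = 0.0483 in edgeR). Of 122 tested RNAs followed under each alternative, more than the text names, 38 changed direction under at least 1, and 6 of these did so although all libraries were kept. Of those named in the text, SPRRNA.43 was at -0.13 with scaling to library size only and at -0.28 with the replicate block, *nmt1* at 0.025 with RLE size factors and 0.024 in DESeq2, and *atd1* at 0.0025 and 0.0034 in the same 2 alternatives. Directions of RNAs named in the text also turned on leaving out a library, with log2 fold changes from -2.90 to 0.67 for SPRRNA.46, -0.56 to 1.40 for SPRRNA.47, -0.10 to 2.42 for SPRRNA.49, -1.39 to 0.86 for SPRRNA.43, -0.33 to 0.20 for *pdc201*, -2.40 to 0.26 for SPRRNA.42, -0.35 to 2.01 for *mrp1*, -1.0 to 1.65 for *rrk1*, -1.79 to 0.079 for *pdc202*, -1.02 to 0.27 for *ctt1*, -0.091 to 0.66 for *hsp16*, -0.77 to 0.31 for *ste11*, -0.75 to 0.64 for *mei2*, -0.52 to 0.40 for *nmt1*, -0.31 to 2.71 for *srp7*, -0.068 to 1.01 for *act1*, -0.12 to 0.11 for *atd1*, -0.027 to 0.42 for *hsp9*, -3.53 to 0.26 for *pil2* and -0.47 to 2.78 for *stt4*. Leaving out *aal1∆* replicate 1 also shifted the median of all RNAs to 0.27. The cause of these changes was not tested. With 2 libraries per strain and a median of 69 counts per tested RNA, the median SE of a log2 fold change was 0.877, and without RNA of the cells before pull-down, abundance and recovery cannot be told apart.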
